A study of Mus musculus with 15 samples.

Results

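Endothelial cells from mouse brain were compared with endothelial cells from heart and from liver, and the genes that stood on the same side of both were kept. Brain endothelium was represented by 5 of the 15 arrays of the study, and heart and liver endothelium by 5 arrays each, 10 in all. The cells came from Tie2-GFP mice on the FVB background, 8 to 12 weeks old and of both sexes in equal number, in which the promoter of Tek (Tie2), a receptor of endothelial cells, drives green fluorescent protein. GFP-positive cells were sorted, and 1 brain sample pooled 6 mice, 1 heart sample 4 mice and 1 liver sample 2 mice. A pool gives a mean over its mice, and the 5 pools of a tissue were treated as replicates. The Tie2 promoter is also active in some blood-derived cells, so a GFP gate alone does not define an endothelial cell. Digestion differed by tissue. Collagenase with DNase followed by trypsin was used for brain, collagenase for heart and dispase at room temperature for liver, so that tissue, digestion and pool size cannot be told apart. No group was treated and no gene was deleted.

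Capillaries of the brain form the blood-brain barrier. Their endothelial cells are joined by continuous tight junctions, carry out little vesicular transport, and take up nutrients through selective carriers while pumps return drugs and waste to the blood. Wnt/beta-catenin signalling in the endothelial cell is known to induce and maintain this state. Capillaries of the heart are continuous and adapted to supplying fatty acids to muscle, and those of the liver are open sinusoids that filter and clear the blood.

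The 5 markers fixed for brain endothelium were high on every brain array. Their mean stood at 11.08 to 11.48 on the brain arrays, 5.45 to 5.75 on the heart arrays and 5.15 to 5.45 on the liver arrays (log2 values, as throughout). The tissue means of Pecam1, Tek and Cdh5, which mark all endothelium, lay within 0.6 of each other. Pecam1, which joins endothelial cells at their borders, was at 11.27 ± 0.09 (brain), 11.36 ± 0.09 (heart) and 10.97 ± 0.13 (liver) (mean ± SD, n = 5, as for every ± here). Tek itself was at 11.50 ± 0.13, 11.02 ± 0.04 and 11.33 ± 0.08. Markers of 13 other cell types differed in where they were high. Neuron markers had means of 5.19 to 5.30 on the brain arrays, 5.14 to 5.33 on the heart arrays and 4.68 to 4.99 on the liver arrays, which were below every brain array. The marker Stmn2 alone had a brain-liver difference of 3.93, with −0.19 between brain and heart. None of the 14 neuron markers was higher or lower in brain than in both tissues. Astrocyte markers were at 5.79 to 6.13 (brain), 5.84 to 5.88 (heart) and 5.68 to 5.82 (liver). Oligodendrocyte markers were at 5.19 to 5.34, 5.31 to 5.40 and 5.10 to 5.34 in the same order. Choroid plexus markers were higher on every brain array (6.35 to 7.13) than on the heart arrays (5.83 to 5.94). The liver arrays (6.02 to 6.36) reached the lowest brain array. This list includes Aqp1, also a water channel of peripheral capillaries, which ran the other way (brain 6.09, heart 10.92, liver 12.07). Aqp1 therefore narrows the gap between brain and the other tissues in this mean. It was the 1 lower member, and 5 members were higher in brain. Pericyte and smooth muscle markers spanned 5.98 to 7.57 in brain, 6.45 to 7.67 in heart and 5.78 to 5.96 in liver. Cardiomyocyte markers were high in heart (7.61 to 9.10), hepatocyte markers in liver (6.95 to 7.62) and Kupffer cell markers on liver arrays 1, 3 and 4 (up to 8.37). In bulk samples, fewer cells of a type and less RNA per cell cannot be told apart.

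**Figure D1:**
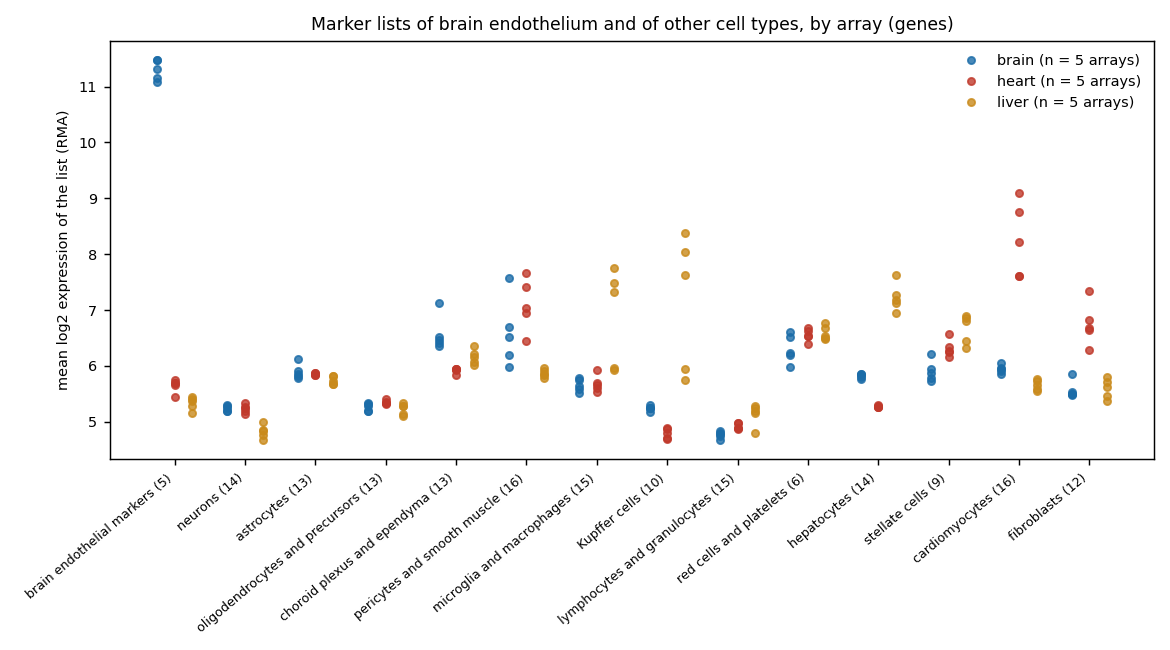
Mean log2 expression of each marker list (vertical axis) by list (horizontal axis, with the number of genes), 1 point per array, brain in blue, heart in red and liver in ochre. The 5 brain endothelial markers lie at 11.08 to 11.48 on the brain arrays and below 6 on the others, and the cardiomyocyte, hepatocyte and Kupffer cell lists are high in heart or liver.

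Over the 19938 genes tested, 937 (4.70%) were higher in brain than in heart and also than in liver, and 563 (2.82%) were lower than in both (limma, Benjamini-Hochberg adjusted p under 0.05 in each comparison). The arrays were also centred on 39 adherens junction and pan-endothelial genes, which moved the brain-liver difference of those genes by 0.277. The split was then 725 higher and 674 lower. Of those 39 genes 6 were themselves higher and 6 lower in brain, so they were not a neutral reference. Genes called with a difference of at least 2-fold from both tissues are termed enriched (311 genes, 1.56%) or depleted (130 genes, 0.652%). For these 2 classes the centred split was 282 and 146. All 5 brain arrays lay above all 10 others for 300 of the 311 enriched genes and below them for 124 of the 130 depleted genes. Both classes were chosen on these same arrays, so this separation follows largely from the choice and adds no support. Over all genes, 719 (3.61%) had every brain array above and 432 (2.17%) every brain array below the other 10.

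Set against the mean of heart and liver, 3911 genes (19.6%) differed (limma, adjusted p under 0.05). Of these 1695 (8.50%) were above both tissues and 1715 (8.60%) below both in their means, and the other 501 (2.51%) lay between heart and liver.

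The median gain was larger than the median loss. The nearer difference, which is the smaller of the brain-heart and brain-liver differences, had a median of 1.66 over the enriched genes (3.15-fold) and of 1.38 over the depleted genes (2.59-fold). It reached 4, or 16-fold, for 32 enriched and 6 depleted genes. Median levels of the enriched genes were 8.72 (brain), 6.38 (heart) and 5.84 (liver), and those of the depleted genes 6.34, 8.28 and 8.85. Heart and liver were themselves not equal in many of these genes. Of the enriched genes 133 (42.8%) differed between heart and liver, 111 of them with heart higher, and of the depleted genes 80 (61.5%) differed, 64 of them with liver higher. Over all genes 27.8% differed between heart and liver. These comparisons share arrays, so no test was made of one count against another.

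**Figure D2:**
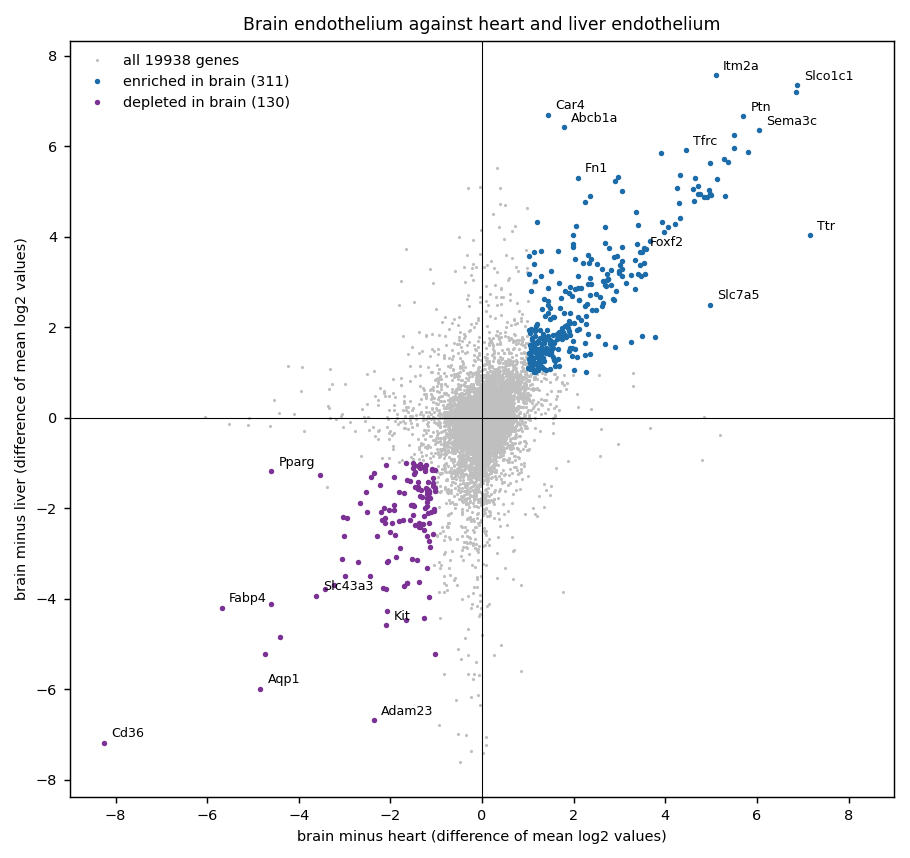
Brain minus heart (horizontal axis) against brain minus liver (vertical axis), both as differences of mean log2 values, with 1 point per gene for all 19938 genes in grey, the 311 enriched genes in blue and the 130 depleted genes in purple. The enriched genes extend along the diagonal to Slco1c1 and Sema3c, Car4 and Abcb1a lie far out on the liver axis and nearer to 0 on the heart axis, and Cd36 is the farthest point in the lower left.

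Promoter sequences are shown for the gene with the largest gain, Slco1c1, and the gene with the largest loss, Cd36. Each is the 250 bases before the RefSeq start site in GRCm38.p6, written 5′ to 3′ on the gene's strand. Slco1c1 lies at chr6:141524104-141524353 on the plus strand and Cd36 at chr5:17835897-17836146 on the minus strand. Capitals mark matches to ACAAAG, the core that Sox factors bind, or to its reverse complement CTTTGT.
Slco1c1: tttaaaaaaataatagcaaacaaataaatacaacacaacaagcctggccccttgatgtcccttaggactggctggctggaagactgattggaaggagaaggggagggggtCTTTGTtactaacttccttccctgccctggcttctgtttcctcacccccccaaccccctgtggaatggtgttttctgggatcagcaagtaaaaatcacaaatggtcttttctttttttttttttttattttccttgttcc
Cd36: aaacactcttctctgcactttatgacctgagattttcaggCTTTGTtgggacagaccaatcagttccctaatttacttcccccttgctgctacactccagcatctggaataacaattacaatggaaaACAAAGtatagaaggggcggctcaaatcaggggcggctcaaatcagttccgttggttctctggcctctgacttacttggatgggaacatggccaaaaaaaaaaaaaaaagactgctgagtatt
The match in Slco1c1 lies at position −140 from the start site, and the first of the 2 in Cd36 at −210. Both strands were searched for 3 motifs in all 32851 RefSeq promoters of this length. ACAAAG was found in 16.5% of all promoters, 16.0% of the 349 promoters of enriched genes and 12.7% of the 126 promoters of depleted genes. CTTTGAT, the core bound by Tcf and Lef factors, which shares 5 letters with the Sox core read on the other strand, was found in 3.21%, 2.29% and 1.59%. GTAAACA, the forkhead core, was found in 3.17%, 0.86% and 5.56%. The matches are letters in a window and were not tested as binding sites. Mfsd2a, Slc2a1 and Ocln held none of the 3 in this window, and of the 4 start sites listed for Lef1 only the fourth had 1, an ACAAAG.

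Carriers for organic anions and thyroid hormone held the 2 largest gains of all genes. Of 19 measured members 4 were higher in brain (21.1%, against 4.70% of all genes), all of them enriched, and Slco3a1 was depleted. Slco1c1, which carries thyroxine, stood at 12.09, 12.08, 12.02, 12.02 and 12.10 on brain arrays 1 to 5, 5.44, 4.93, 5.21, 5.36 and 5.04 on the heart arrays and 4.39, 4.80, 4.68, 4.82 and 4.82 on the liver arrays. The brain arrays agreed within 0.1 and were far from all others, with a brain-heart difference of 6.87 (SE 0.10, adjusted p = 1.84e-17) and a brain-liver difference of 7.36 (SE 0.10, adjusted p = 1.15e-18). Its relative Slco1a4, a broader organic anion carrier, was nearly the same distance away, at 10.88 ± 0.29 (brain), 4.02 ± 0.21 (heart) and 3.69 ± 0.25 (liver). Slc22a8, an organic anion exchanger, had a nearer difference of 5.38 (41.6-fold) and Slco2b1 one of 1.49. Slco3a1 went the other way, at 6.80 ± 0.35 in brain against 7.96 ± 0.07 and 8.45 ± 0.17.

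Of the 21 glucose and monocarboxylate carriers, 4 were higher (19%, against 4.70% of all genes), all of them enriched. None was lower (limma, 1 at an unadjusted p under 0.05 in both comparisons). Slc2a1, the glucose carrier GLUT1, stood at 12.67 ± 0.15 (brain), 7.18 ± 0.37 (heart) and 6.43 ± 0.16 (liver). Slc16a1, which moves lactate and ketone bodies, had a nearer difference of 4.32, and its relatives Slc16a4 and Slc16a9 of 3.37 and 3.13. A second, dim probe set of Slc16a9 gave 0.66 against heart and 0.64 against liver.

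Amino acid carriers were higher for 8 of 36 members (22.2%). Slc38a3 and Slc38a5, which carry glutamine and related amino acids, had nearer differences of 4.89 and 4.63. The cationic amino acid carriers Slc7a3 and Slc7a1 had 3.54 and 2.77, and the glutamate carrier Slc1a1 had 3.06. Slc7a5, the light chain of the large neutral amino acid carrier LAT1, stood at 12.04, 11.65, 11.74, 11.98 and 11.76 in brain, 8.20, 6.40, 6.74, 6.99 and 6.02 in heart and 9.55, 9.30, 9.24, 9.24 and 9.31 in liver. Brain was highest on every array, liver was intermediate, and heart was lowest with heart array 1 above the other heart arrays. The brain-liver difference was 2.50 (SE 0.27, adjusted p = 1.05e-06). Its heavy chain Slc3a2, chosen after its values were seen, had a nearer difference of 1.06. Slc43a3, a carrier of purine bases, was depleted instead, at 7.65 ± 0.35 (brain) against 11.27 ± 0.13 (heart) and 11.59 ± 0.11 (liver). A second lower member, Slc7a7 (−0.40), lost its call without any 1 of 12 arrays: brain 1, 2, 4 or 5, heart 2 to 5, or liver 1 to 4.

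Vitamin, choline and nucleoside carriers were higher for 5 of 25 members (20.0%) and lower for 2, Slc44a2 (−0.81) and the nucleoside carrier Slc29a1 (−0.43). Only 1 was lower without brain 3 or 5 or heart 1, 3 or 5. The gains were led by Flvcr2, which imports choline (3.05), the retinol receptor Stra6 (1.68) and the riboflavin carrier Slc52a3 (1.63). Slc35f2, of another solute carrier family outside these lists, was among the 25 largest gains at 4.85. Across the whole solute carrier superfamily, 33 of 379 genes with an Slc or Slco symbol were higher (8.71%) and 9 were lower (2.37%). The share of lower genes was near the 2.82% of all genes.

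Of 40 genes of the ABC family, which includes export pumps, 6 were higher (15%, against 4.70% of all genes). Another 3 were lower (7.5%, against 2.82%). Abcb1a, the drug efflux pump P-glycoprotein, stood at 12.29, 12.21, 12.26, 12.28 and 12.33 in brain, 10.61, 10.50, 10.59, 10.24 and 10.54 in heart and 5.61, 6.01, 5.68, 5.92 and 6.01 in liver. Heart lay much nearer to brain than liver did, and the brain-heart difference was 1.78 (SE 0.09, adjusted p = 1.57e-10) and the brain-liver difference 6.43 (SE 0.09, adjusted p = 1.6e-18). Abcg2, another drug pump, followed the same order at 10.84 ± 0.17, 9.49 ± 0.04 and 8.21 ± 0.11. Abcc4, an exporter of cyclic nucleotides and prostaglandins, was about equally far from both (2.65 and 2.55). Abcc9, a potassium channel subunit of mural cells and some endothelium, was depleted at −2.30 with overlapping arrays. Abcc9 is itself 1 of the 16 pericyte and smooth muscle markers. Its values in heart ran from 6.75 to 9.72, in the order of the mean of these markers over the heart arrays. In liver, where that mean was lowest (5.78 to 5.96), Abcc9 was at 8.72 ± 0.26. Without the 3 arrays high in mural or muscle markers its nearer difference was −1.89. The part of mural RNA in these values was not tested.

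Of 31 genes of sodium, chloride and bicarbonate transport 5 were higher (16.1%, against 4.70% of all genes). The count was 3 when brain 1, brain 2, heart 3, heart 4 or heart 5 was left out. The 1 lower member (3.23%, against 2.82%) was Slc26a10 (−0.75). Slc9a2, a sodium-proton exchanger, stood apart most clearly (2.26). Atp1b1, a subunit of the sodium pump, had 1.80, and Slc4a10, a bicarbonate carrier, 1.24. Slc4a10 was highest on brain array 1 (7.47, against 5.02 to 6.02 on the other brain arrays), the array highest in choroid plexus markers. Its nearer difference was 0.83 without that array. Without the 3 liver arrays high in macrophage markers it missed the threshold (1.09, limma adjusted p = 0.159). A part of choroid plexus RNA in its values was not tested. Of 34 potassium and other cation channels 3 were higher (8.82%) and 1, Kcnk6 (−0.48), was lower (2.94%). The lower share was near that of all genes. The gains were led by the magnesium channel Trpm6 (2.0) and the inward rectifier Kcnj2 (1.54).

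Metal ion genes were higher for 5 of 29 members (17.2%) and lower for 1 (3.45%, against 2.82% of all genes), Hfe (−0.33). The Hfe call was lost without any 1 of 11 arrays: brain 1, 2 or 3, heart 1, 2, 3 or 5, or liver 1 to 4. Tfrc, the transferrin receptor that brings in iron, stood at 11.27, 11.06, 11.13, 11.01 and 11.38 in brain, 9.06, 6.27, 6.54, 6.33 and 5.41 in heart and 5.51, 4.84, 5.69, 5.41 and 4.79 in liver. The brain arrays lay within 0.4 of each other, and heart array 1 was far above the other heart arrays but below all brain arrays. The nearer difference was 4.45, or 5.03 without that heart array. Cp, the ferroxidase ceruloplasmin, had a nearer difference of 2.68, the zinc importer Slc39a10 2.30 and the zinc exporter Slc30a1 1.06. Of 21 aquaporins and carbonic anhydrases, 6 were higher (28.6%, against 4.70% of all genes) and 2 were lower (9.52%, against 2.82%). Aqp11, an intracellular water channel, rose by 3.66, and the carbonic anhydrases Car2 and Car14 by 1.64 and 1.07. Car4, anchored on the vessel surface, was at 11.90 ± 0.09 in brain and 10.46 ± 0.25 in heart but 5.20 ± 0.10 in liver.

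**Figure D3:**
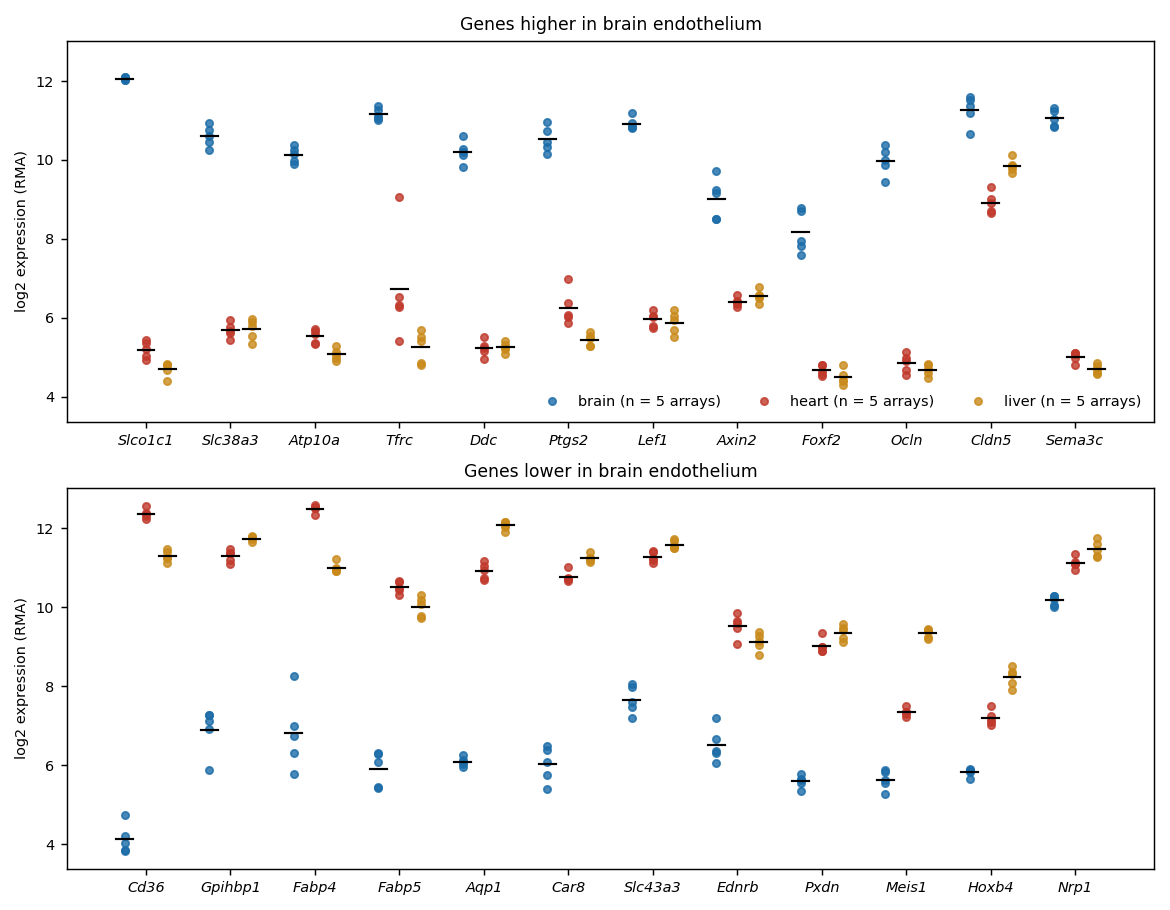
Log2 expression (vertical axis) of 12 genes higher in brain (upper panel) and 12 genes lower in brain (lower panel), 1 point per array with brain in blue, heart in red and liver in ochre, and a black bar at the mean of 5 arrays. No brain point lies among the heart or liver points of the same gene, and heart array 1 stands high for Tfrc.

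Aqp1, the water channel of peripheral capillaries, and Car8, a relative of the carbonic anhydrases without catalytic activity, were among the largest losses. Aqp1 stood at 6.26, 5.95, 6.07, 6.13 and 6.03 in brain, 11.18, 10.70, 11.04, 10.75 and 10.95 in heart and 12.04, 12.16, 12.15, 11.92 and 12.08 in liver. The 5 brain arrays were close together and at least 4 log2 units below any other array. The brain-heart difference was −4.84 (SE 0.09, adjusted p = 2.72e-16). Car8 had a nearer difference of −4.75.

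Flippases move phospholipids between the leaflets of the membrane, and 6 of 19 measured genes of this kind were higher in brain (31.6%). The median brain difference over the whole list was 0.45, against −0.02 over all genes. Mfsd2a, which brings in lysophospholipids with docosahexaenoic acid and restrains transcytosis, was at 11.52, 10.95, 10.53, 10.54 and 10.81 in brain, 4.86, 4.94, 5.34, 5.15 and 5.08 in heart and 4.99, 5.17, 4.76, 4.88 and 5.15 in liver. Atp10a, a flippase of phosphatidylcholine, was at 10.13 ± 0.19 in brain against 5.53 ± 0.18 and 5.07 ± 0.14. Both were more than 20-fold higher than in either tissue. Smaller gains followed in Atp11b (1.22), Atp8a1 (0.97), Atp10d (0.68) and Atp11a (0.45), and Atp9a was lower (−0.81).

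Among 27 genes of caveolae, diaphragms and transcytosis 6 were higher (22.2%, against 4.70% of all genes). Mfsd2a, also counted here, had the largest gain of the list, followed by receptors that carry ligands into or across the cell. Lrp8, a receptor of the LDL receptor family, had a nearer difference of 2.98, and the insulin-like growth factor receptor Igf1r 2.72. The insulin receptor Insr, at 11.37 ± 0.20 in brain, had 0.98, and its other probe set gave 2.20 against heart and 1.32 against liver. The structural genes did not share this direction. Cavin2, a coat protein of caveolae, was lower (−0.58), and Cav1, their main membrane protein, was lower than in heart (−1.10) but higher than in liver (1.85). Plvap, which forms the diaphragms of fenestrae, was at 6.57 ± 0.07 (brain), 6.43 ± 0.22 (heart) and 7.48 ± 0.40 (liver), and only the difference from liver passed the test (adjusted p = 0.000164).

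Ddc, an enzyme outside the lists that makes dopamine and serotonin from their precursors, stood at 10.20, 9.82, 10.12, 10.28 and 10.60 in brain, 4.96, 5.17, 5.29, 5.25 and 5.50 in heart and 5.20, 5.24, 5.32, 5.09 and 5.40 in liver. Heart and liver were at the same low level and all brain arrays about 5 log2 units higher. Bche, butyrylcholinesterase, also outside the lists, had a nearer difference of 4.91. Of 74 xenobiotic and redox enzymes 9 were higher (12.2%, against 4.70% of all genes) and 3 lower (4.05%, against 2.82%). The monoamine oxidases Maoa and Maob rose by 2.96 and 3.0, the retinal dehydrogenase Aldh1a1 by 3.38 and the glutathione transferases Gstm7, Gsta4 and Gstm5 by 2.48, 2.33 and 1.54. Over the Gst family as the array measured it, 4 of 19 were higher (21.1%). Its Gstm members are close copies, and probes may read more than 1 of them. Cyp4b1, a cytochrome P450, was depleted at −2.10.

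Prostaglandin genes were higher for 4 of 24 members (16.7%, against 4.70% of all genes) and lower for 2 (8.33%, against 2.82%). The lower members were Pla2g7 (−0.92) and Ptgr1 (−0.68), and 1 was lower without brain 2, 3 or 5, heart 1, 2, 4 or 5, or liver 4. Ptgs2, the inducible cyclooxygenase, stood at 10.14, 10.96, 10.32, 10.45 and 10.74 in brain, 6.98, 6.07, 6.03, 6.38 and 5.86 in heart and 5.49, 5.53, 5.30, 5.65 and 5.29 in liver. Every brain array was more than 3 log2 units above every other array, and the brain-heart difference was 4.26 (SE 0.19, adjusted p = 1.11e-11). Pla2g4a, the phospholipase that releases its substrate, rose by 2.81, and Ptges, which converts its product to prostaglandin E2, by 0.78.

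Of 28 fatty acid oxidation genes 7 were higher (25%, against 4.70% of all genes). None was lower (limma, 0 also at an unadjusted p under 0.05) and none was enriched. The largest gains were in Cpt1a, the entry step into mitochondria (0.91), and Hadh (0.75). With the arrays centred on the junction and pan-endothelial genes 4 were higher. Of 26 cholesterol synthesis genes 7 were higher (26.9%), with Cyp51 at 1.04 and the other 6 between 0.49 and 0.63. After the same centring 3 were higher. Mylip, which marks lipoprotein receptors for destruction, was lower at −0.99. Glycolysis genes were higher for 2 of 25 (8%, against 4.70% of all genes), Pfkl (0.68) and Tpi1 (0.53). Only 1 was higher without brain 1, brain 3, liver 1, liver 2 or liver 5. Of 75 respiratory chain and ATP synthase genes none was higher (limma, 0 also at an unadjusted p under 0.05). The 1 lower member (1.33%, against 2.82% of all genes) was Cox7a2 at −0.24. Its call was lost without brain 1, 2, 3 or 4 or heart 3, 4 or 5 (adjusted p up to 0.0844), and 2 members were lower without brain 5.

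Tight junction genes moved in both directions, with 10 of 32 higher (31.2%) and 5 lower (15.6%). The gains were larger. Ocln, the membrane protein occludin, stood at 9.99, 10.37, 9.87, 9.45 and 10.21 in brain, 4.98, 4.90, 4.56, 4.69 and 5.14 in heart and 4.47, 4.81, 4.84, 4.71 and 4.61 in liver, and no brain array came within 4 log2 units of the others. Marveld2 and Lsr, which sit where 3 cells meet, had nearer differences of 3.42 and 2.35. The polarity protein Pard3 had 1.90 and the scaffold Cgnl1 1.15. Cldn5, the main claudin of endothelium, stood at 11.27 ± 0.38 (brain), 8.92 ± 0.27 (heart) and 9.86 ± 0.16 (liver), and its nearer difference was 1.41. Jam3, a junctional adhesion molecule, was the depleted member, at −1.04. The other lower members, Amotl1, Cldn15, Magi1 and Jam2, lay between −0.47 and −0.28. The count of lower members was 2 without brain 1 and 3 without brain 4, brain 5, heart 3, heart 5, liver 3 or liver 4. In the list of adherens junction and pan-endothelial genes 6 of 39 were higher and 6 lower (15.4% each, against 4.70% and 2.82% of all genes). Cdh5, the endothelial cadherin, was at 11.50 ± 0.11 in brain against 12.06 ± 0.17 and 11.73 ± 0.26, and only its difference from heart passed the test (adjusted p = 0.00218).

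Wnt and norrin signalling had the most enriched members of the 44 functional lists, 11, and 14 of its 45 genes were higher (31.1%). The list includes the fixed marker Lef1, and lists were chosen with earlier results of these data known, so the rank is description only. Among receptors and their partners, Reck, which with Adgra2 makes the receptor responsive to Wnt7 ligands, was at 10.19 ± 0.27 in brain against 6.78 ± 0.22 and 5.92 ± 0.12. Adgra2, Fzd3 and Fzd6, chosen after their values were seen, had nearer differences of 0.52, 1.82 and 1.49. Adgra2 missed the threshold with the arrays centred on the junction and pan-endothelial genes (0.25, limma adjusted p = 0.0591). Fzd4 and Tspan12, the receptor and coreceptor of norrin, did not pass the test. Fzd4 was at 8.44 ± 0.20 (brain), 8.67 ± 0.08 (heart) and 8.53 ± 0.06 (liver), and Tspan12 at 10.24 ± 0.30, 10.45 ± 0.13 and 10.12 ± 0.15.

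Lef1, the transcription factor that acts with beta-catenin, stood at 10.93, 11.18, 10.84, 10.81 and 10.84 in brain, 5.79, 5.75, 6.05, 6.01 and 6.20 in heart and 5.51, 5.68, 5.94, 6.04 and 6.21 in liver. Heart and liver arrays overlapped each other and none approached the brain arrays. Axin2, a target and inhibitor of the pathway, stood at 9.71, 8.50, 9.24, 8.50 and 9.17 in brain, 6.35, 6.43, 6.29, 6.41 and 6.58 in heart and 6.55, 6.59, 6.36, 6.50 and 6.78 in liver. Other inhibitors induced by the pathway rose with it, Apcdd1 by 4.75 and Notum by 2.15, as did the receptor Tnfrsf19 by 2.81. Ccnd1, the cell cycle gene cyclin D1 and a target in many cell types, was lower (−1.0). Apc was also lower (−0.28), but not when brain 1, 2, 3 or 5, heart 2 to 5 or liver 2 to 5 was left out.

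Transcription factors of the forkhead, Sox and GATA families were higher for 10 of 46 members (21.7%) and lower for 2 (4.35%), Zfpm2 (−0.59) and Gata4 (−0.36). Gata4 was no longer called without brain 1, brain 3, heart 1 or heart 2. Foxf2, a factor of brain vessels and their pericytes, stood at 7.83, 8.78, 7.96, 8.72 and 7.59 in brain, 4.53, 4.58, 4.66, 4.81 and 4.81 in heart and 4.31, 4.81, 4.56, 4.41 and 4.43 in liver. The mean of the pericyte and smooth muscle markers was 7.57, 6.20, 6.52, 6.70 and 5.98 on brain arrays 1 to 5. The nearer difference of Foxf2 was 3.50 with and 3.53 without the 3 arrays high in mural or muscle markers. The part of pericyte RNA in its values was not tested. Foxf1 had a nearer difference of 4.30, and its dimmer probe set gave 0.74 against heart and 1.01 against liver. Foxc1 had 2.16 and Foxq1 0.98. Zic2, a zinc finger factor from the list of other developmental factors, was at 6.50 ± 0.31 in brain against 4.68 ± 0.25 and 4.69 ± 0.23. In that list 9 of 52 were higher (17.3%, against 4.70% of all genes) and 2 were lower (3.85%, against 2.82%).

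Secreted factors were higher for 8 of 50 members (16.0%) in brain. Ptn, the heparin-binding growth factor pleiotrophin, stood at 11.50, 11.82, 11.58, 11.68 and 11.63 in brain, 6.31, 5.65, 6.07, 6.01 and 5.68 in heart and 4.56, 5.21, 4.95, 5.17 and 5.00 in liver. Sema3c, a secreted guidance cue, was at 11.03, 10.84, 10.85, 11.24 and 11.32 in brain, 5.10, 5.00, 5.11, 5.08 and 4.81 in heart and 4.67, 4.58, 4.60, 4.85 and 4.77 in liver. In both genes the 5 brain arrays lay within 0.5 of each other and more than 5 log2 units above the rest. Spock2, a matrix proteoglycan, had a nearer difference of 4.72 and Tgfb2 of 2.88. The endothelins Edn1 and Edn3, vasoactive peptides, rose by 2.69 and 1.25, and Wnt5a by 1.64. Igf1, a growth factor also made by macrophages, was depleted at −1.17. Nrg1 (−0.26) was lower too, but not without any 1 of 11 arrays: brain 1, 2, 3 or 5, heart 1, 2 or 5, or liver 2 to 5. Of 52 basement membrane and matrix genes 8 were higher (15.4%). Fibronectin (Fn1) was at 11.58 ± 0.08, 9.49 ± 0.24 and 6.27 ± 0.27 in brain, heart and liver, and agrin (Agrn) had a nearer difference of 1.07. In the same list 4 were lower (7.69%, against 2.82% of all genes), including nidogen (Nid1, −1.17) and the laminin chain Lama4 (−1.04).

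Genes of arterial endothelium and Notch signalling were higher for 11 of 34 members (32.4%). The 1 lower member (2.94%, against 2.82% of all genes) was the ligand Dll1 (−0.47). The median brain difference of the list was 0.57. Gkn3, a marker of brain arterial endothelium, led with 5.28, followed by the kinase Bmx (2.38), Nebl (1.98), clusterin (Clu, 1.54) and the Notch ligand Jag1 (0.97). Of 17 venous and lymphatic genes 6 were higher (35.3%) and 3 lower (17.6%). The gains included von Willebrand factor (Vwf, 1.92) and the leukocyte adhesion molecule Vcam1 (1.49). Lcn2, a siderophore-binding protein, varied within brain, at 4.71, 5.51, 8.40, 6.84 and 5.96, while heart stood at 4.88, 4.65, 4.80, 4.73 and 4.74 and liver at 4.53, 4.84, 4.63, 4.73 and 4.89. The brain arrays ran from 4.71 to 8.40, with array 1 inside the range of the heart and liver arrays, and the nearer difference of 1.52 was 0.99 without brain array 3. Its call was lost without brain 4, heart 2 or heart 4 (adjusted p up to 0.0617).

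**Figure D4:**
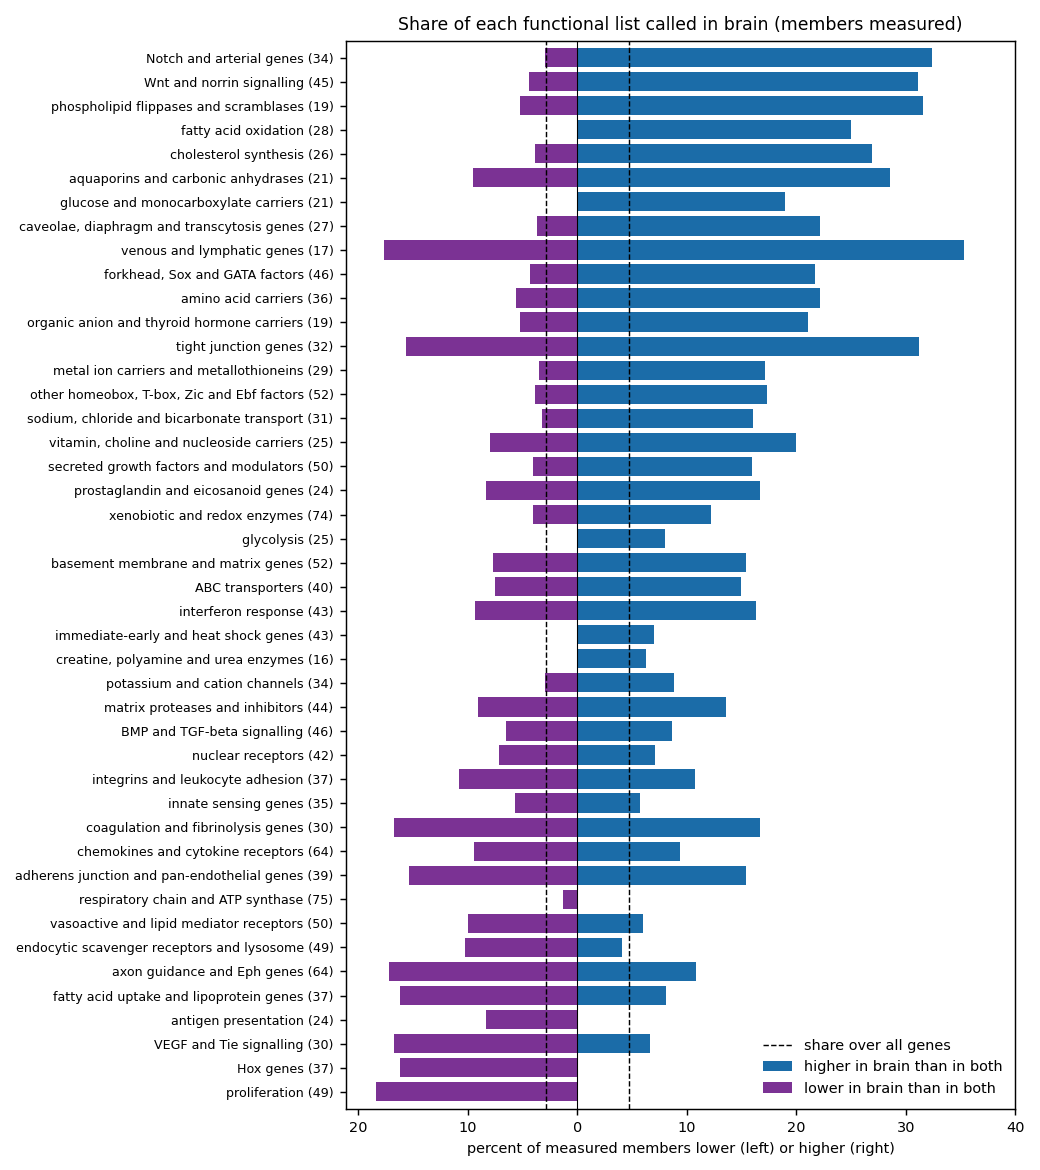
Percent of measured members (horizontal axis) higher in brain than in heart and liver (blue, to the right) or lower than in both (purple, to the left) for 44 functional lists (vertical axis, with the number measured), with dashed lines at the shares over all genes, 4.70% and 2.82%. Arterial, Wnt and flippase lists extend farthest to the right net of losses, and proliferation, Hox and VEGF lists have the largest net share to the left.

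Genes of fatty acid uptake held the largest loss of all genes. Of 37 genes of fatty acid uptake and lipoprotein handling, 6 were lower (16.2%, against 2.82% of all genes), 5 of them depleted. Another 3 were higher (8.11%, against 4.70%), each by less than 2-fold. Cd36, which takes up long-chain fatty acids, stood at 4.03, 3.84, 4.20, 4.74 and 3.81 in brain, 12.36, 12.58, 12.23, 12.30 and 12.40 in heart and 11.13, 11.48, 11.24, 11.24 and 11.41 in liver. All 10 peripheral arrays were above 11 and all 5 brain arrays below 5. The brain-heart difference was −8.25 (SE 0.14, adjusted p = 6.31e-17) and the brain-liver difference −7.17 (SE 0.14, adjusted p = 9.18e-17), or 144-fold on the nearer side.

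Gpihbp1, which holds lipoprotein lipase on the capillary wall, was at 5.88, 6.90, 7.13, 7.28 and 7.26 in brain, 11.10, 11.20, 11.48, 11.38 and 11.37 in heart and 11.64, 11.77, 11.80, 11.74 and 11.74 in liver. Fabp4, a fatty acid carrier inside the cell, was at 6.74, 6.32, 6.98, 8.25 and 5.77 in brain and 12.53, 12.58, 12.51, 12.51 and 12.33 in heart, and the liver arrays lay between 10.91 and 11.23. Both varied more among the brain arrays than elsewhere, and no brain array reached a peripheral one. Fabp5 had a nearer difference of −4.11, with −4.61 against heart, and its other probe set gave −4.73 and −4.22. Pparg, the nuclear receptor that drives several of these genes, was at 5.52 ± 0.22 (brain), 10.12 ± 0.26 (heart) and 6.69 ± 0.26 (liver). Cardiomyocytes also make Cd36 and fatty acid binding proteins, and their markers were high in heart alone (7.61 to 9.10, against 5.55 to 5.77 in liver). The liver arrays were high in hepatocyte markers (6.95 to 7.62), and some of them in Kupffer cell markers (up to 8.37). Against liver the differences were −7.17 for Cd36, −4.85 for Gpihbp1, −4.19 for Fabp4 and −4.11 for Fabp5. The part of RNA from other cells in the heart or liver differences was not tested.

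Genes of guidance cues and VEGF signalling moved in both directions. Of 64 axon guidance and Eph genes 11 were lower (17.2%) and 7 higher (10.9%). Of 30 genes of VEGF and Tie signalling 5 were lower (16.7%) and 2 higher (6.67%). Over all genes 2.82% were lower and 4.70% higher. The lists share members. Nrp1, a coreceptor of VEGF and semaphorins, stood at 10.17 ± 0.13 (brain), 11.12 ± 0.14 (heart) and 11.47 ± 0.20 (liver), and Nrp2 and the semaphorin receptor Plxnd1 had nearer differences of −1.07 and −0.99. Kdr, the main signalling receptor for VEGF, was lower at −0.64, whereas Flt1, its decoy receptor, was higher at 0.81. Angpt1, a Tie2 ligand made by mural cells, was higher at 1.35. It was highest on brain array 1, which was also the brain array highest in mural, choroid plexus and fibroblast markers. Without that array Angpt1 was 1.19 higher. A part of mural RNA in its values was not tested.

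Genes of vasoactive and lipid mediator signals, receptors and enzymes, were lower for 5 of 50 members (10%, against 2.82% of all genes). The 3 higher members (6%, against 4.70%) were Pde5a, which breaks down cyclic GMP (1.02), the peptidase Mme (0.89) and the nitric oxide synthase Nos3 (0.51). Ednrb, the endothelin B receptor, stood at 6.35, 6.05, 7.19, 6.32 and 6.66 in brain, 9.65, 9.07, 9.86, 9.60 and 9.47 in heart and 9.28, 9.05, 9.36, 9.14 and 8.78 in liver. Its ligands Edn1 and Edn3 had gone in the opposite direction. The natriuretic peptide receptor Npr2 and the thrombin receptor F2r had nearer differences of −1.39 and −1.36. Bmp6, an iron-regulating ligand of the BMP family, was at 7.06 ± 0.40 in brain against 8.86 ± 0.14 and 9.92 ± 0.25. Kit, the stem cell factor receptor, fell to 5.71 ± 0.33 in brain from 7.81 ± 0.23 in heart and 10.28 ± 0.23 in liver.

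Hox genes, which record position along the body axis, were lower in brain or not called. Of 37 listed members 6 were lower (16.2%) and none was higher (limma, 0 also at an unadjusted p under 0.05). Hoxb4 stood at 5.86, 5.82, 5.89, 5.65 and 5.89 in brain, 7.24, 7.09, 7.14, 7.02 and 7.50 in heart and 8.32, 8.07, 7.91, 8.36 and 8.52 in liver. The 3 tissues did not overlap, with brain lowest and liver highest. The same order of means held for Hoxa5 (−1.13), Hoxb5 (−0.91), Hoxa2 (−0.73), Hoxb2 (−0.62) and Hoxa4 (−0.53). Hoxa4 had an adjusted p of 0.0486 against heart and missed the threshold without any 1 of 10 arrays, at adjusted p up to 0.117: brain 1, 3 or 4, heart 1, 3, 4 or 5, or liver 2, 3 or 5. Meis1, a cofactor of Hox proteins, went with them, at 5.63 ± 0.25 (brain), 7.34 ± 0.11 (heart) and 9.34 ± 0.11 (liver). The nuclear receptor Nr5a2 and the ETS factor Ets2 were also depleted, at −1.21 and −1.18.

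Immune genes moved in both directions. Pglyrp1, a peptidoglycan-binding protein, was enriched at 4.97, whereas Tlr4, the endotoxin receptor, was at 5.57 ± 0.27 in brain against 7.04 ± 0.26 and 7.93 ± 0.19. Cd55, which shields cells from complement, was depleted at −1.03. Of 43 interferon response genes 7 were higher (16.3%, against 4.70% of all genes) and 4 lower (9.3%, against 2.82%). The receptor chain Ifnar1 (1.48) and the induced gene Ifit1 (1.07) were higher, and the related Ifit2 (−1.5) and Iigp1 (−1.12) lower. Of 24 antigen presentation genes none was higher (limma, 0 also at an unadjusted p under 0.05). The 2 lower members (8.33%) were the immunoproteasome subunits Psmb8 and Psmb9, by 0.40 and 0.50 on the log2 scale. Only 1 was lower without brain 2, brain 3, heart 2 to 5, liver 3 or liver 5. The macrophage markers were at 5.51 to 5.79 on the brain arrays and up to 7.76 in liver, and their part in these differences was not tested.

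Proliferation genes were lower for 9 of 49 members (18.4%), none was higher (limma, 0 also at an unadjusted p under 0.05) and the median brain difference of the list was −0.33. Top2a, a topoisomerase of dividing cells, was at 4.56 ± 0.17 (brain), 6.48 ± 0.70 (heart) and 5.87 ± 0.58 (liver). The kinesin Kif4 and the replication helicase subunit Mcm6 had nearer differences of −1.29 and −1.10. The count was 5 without liver array 3 and 3 without the 3 liver arrays high in macrophage markers, where Top2a was no longer called. A dimmer probe set of Top2a gave −0.48 against heart and 0.11 against liver. Of 43 immediate-early and heat shock genes 3 were higher (6.98%, against 4.70% of all genes). None was lower (limma, 2 at an unadjusted p under 0.05), and the list median was 0.44. The count of higher genes was 7 without heart array 1 and 1 without brain 1, brain 2, brain 4 or any 1 of heart 2 to 5. It was 9 without the 3 arrays high in mural or muscle markers. The digestions differed by tissue, and the part of this in the result cannot be told apart.

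Many genes with large changes belonged to none of the lists. Among gains, Itm2a, a membrane protein of brain vessels, was at 12.04 ± 0.15 (brain), 6.94 ± 0.29 (heart) and 4.46 ± 0.28 (liver), and Ccdc141 had a nearer difference of 5.49, with the same direction in all 5 of its probe sets. Tmeff1 (4.92), the secreted protein Ndnf (4.71) and the matrix-binding Itih5 (4.66) were each more than 25-fold higher than in either tissue. Among losses, Pxdn, a peroxidase that crosslinks collagen IV, stood at 5.65, 5.78, 5.56, 5.34 and 5.62 in brain, 8.98, 9.34, 8.89, 8.90 and 8.99 in heart and 9.48, 9.57, 9.41, 9.22 and 9.11 in liver. The exchange factor Vav3 (−3.24), the cytoskeletal adaptor Pdlim1 (−3.06), the ubiquitin ligase Hecw2 (−2.98) and the lymphoid and endothelial GTPase Gimap4 (−2.71) were similarly low. Of 8 Gimap genes 3 were lower (37.5%, against 2.82% of all genes). Plpp3, which breaks down lysophosphatidic acid (−2.16), the endothelial gene Myct1 (−2.18), Sgce (−2.44) and Gngt2 (−2.13) were also depleted. Of 44 matrix proteases and inhibitors 6 were higher (13.6%) and 4 lower (9.09%), or 2 lower without brain array 4. Its members Adam23 and Adam19 had −2.36 and −1.66, and Adam23 was far higher in liver (11.52 ± 0.15) than in heart (7.19 ± 0.13).

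Ttr, the thyroid hormone-binding protein transthyretin, needs separate mention. It stood at 12.72, 12.77, 12.58, 12.26 and 12.08 in brain, 5.07, 5.73, 5.11, 5.23 and 5.49 in heart and 8.12, 8.16, 7.93, 8.01 and 9.98 in liver. The gene is made in large amounts by choroid plexus and hepatocytes. In brain it was high on all 5 arrays, and liver array 5 was above the other liver arrays. Of 13 choroid plexus and ependyma genes 5 were higher in brain (Ttr, Clic6, Kl, Sostdc1 and Otx2) and 1, Aqp1, was lower. Otx2 was no longer called without heart 1, heart 2 or heart 5. Clic6 and Kl were highest on brain array 1 and had nearer differences of 1.52 and 1.33, or 1.19 and 1.0 without it. The part of choroid plexus RNA in these values was not tested.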

How the data were processed

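Each sample was read on 1 Affymetrix mouse gene array from 5 ng of total RNA. The log2 values that the authors deposited cover 35556 probe sets. Per the submitters' processing notes they were made by RMA with Affymetrix Power Tools. Tool versions and the probes' genome build were not given in the sources used here. RMA equalises the arrays and compresses large differences. Values were used as deposited (array medians 5.98 to 6.11), and the number of arrays limits the precision. Of the probe sets, 21789 carried 1 gene symbol, and for each of 19938 genes the probe set with the highest mean was kept (999 genes had several). Means per tissue were fitted over all 15 arrays with limma 3.58.1 in R 4.3.3, and p-values were adjusted by Benjamini-Hochberg over all genes. The fit was tested on simulated data.

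A gene was called higher or lower when brain differed in the same direction from heart and from liver, and enriched or depleted when both differences were also at least 2-fold. Text names the 25 leading genes of each class, up to 6 called members per list and direction, markers, and well-known uncalled members; others are said to be chosen after seeing values. Members and lists were chosen with earlier results of these data known. Of 1839 genes listed, 1703 were measured, and the 44 functional lists overlap. Nothing says that pools of a tissue shared no animal or day, so p-values measure the spread between these samples. Sample numbers were not taken to pair the tissues in the main fit, because the labels do not say what a number marks. Same-numbered arrays were somewhat more alike. Deviations from the tissue means correlated with a median of 0.095 over 15 same-numbered pairs (−0.001 to 0.204, 6 over 0.1). Over 60 other-numbered pairs the median was −0.024 (−0.167 to 0.126). Alternatives changed the centring, the probe set, the filter, the prior, the size limit, the block and the arrays used. Promoters and names came from RefSeq (GRCm38.p6).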

Additional observations from a re-analysis of the deposited data

Results flagged for a closer look

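For the genes named in the text and for the marker lists, the highest or lowest of 5 arrays was set against the other 4, in 633 groups of arrays. In 41 groups that array stood apart by more than Dixon's limit of 0.71 of the range, and chance alone flags about 1 in 20 groups.

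Brain array 1 was the highest for the mean of the choroid plexus and ependyma markers (7.13, the other brain arrays at most 6.52), for the mean of the fibroblast markers (5.85, at most 5.53), for Clic6 (7.37, at most 5.90), for Kl (7.26, at most 5.80) and for Otx2 (5.58, at most 4.78). It was the lowest brain array for Aqp11 (9.13, the others at least 9.72), Gpihbp1 (5.88, at least 6.90) and Gngt2 (7.64, at least 7.95). Brain array 4 was the lowest for Cav1 (10.42, the others at least 10.56), Tnfrsf19 (7.82, at least 8.36), Hoxb4 (5.65, at least 5.82) and Kdr (10.52, at least 10.87).

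Among the heart arrays, array 1 was lowest for Slc16a4 (7.18), Slc9a2 (4.66) and Slc7a7 (6.81) and highest for Foxf1 (6.89). Heart array 2 was highest for Car8 (11.03), Cav1 (11.78), Plxnd1 (9.87) and Pxdn (9.34) and lowest for Cgnl1 (8.34) and Hoxb2 (5.67). Heart array 3 was highest for Foxq1 (6.26). Heart array 4 was lowest for Abcb1a (10.24), Gstm5 (5.53) and the mean of the choroid plexus markers (5.83). Heart array 5 was highest for Atp10d (8.91).

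Among the liver arrays, array 1 was highest for Slc7a5 (9.55), Hoxb5 (9.29), Hoxb2 (7.26) and Magi1 (7.90) and lowest for Cyp51 (4.83) and Kl (4.25). Liver array 2 was highest for Car2 (6.89), Fabp4 (11.23), Cd55 (11.73) and Iigp1 (10.41) and lowest for the mean of the lymphocyte and granulocyte markers (4.80). Liver array 5 was highest for Slc38a5 (5.60) and for Ttr (9.98, the other liver arrays at most 8.16), and lowest for Slc7a7 (9.25).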

How the results depend on the processing

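Counts of enriched and depleted genes were 586 and 296 with a limit of 1.5-fold, 113 and 31 with 4-fold, and 169 and 52 when limma's treat tested against a log2 difference of 1. With only the test against the mean of heart and liver, and the same direction against each, 1695 genes were higher and 1715 lower. With the arrays centred on the junction and pan-endothelial genes these counts were 1121 and 3163. Leaving out 1 array at a time gave 857 to 937 higher, 498 to 565 lower, 298 to 320 enriched and 126 to 137 depleted genes, and 544 to 635 called genes that differed between heart and liver. Against the mean of heart and liver the ranges were 1529 to 1734 higher and 1472 to 1755 lower. With the sample number as a replicate block, 985 genes were higher and 613 lower, and 311 enriched and 131 depleted; of the samples, 20 of 30 comparisons matched best with their own number. The other alternatives stayed within 1.5 times of these counts.

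2 alternatives were chosen after seeing the data. Without the 3 arrays high in mural or muscle markers, 810 genes were higher and 479 lower, of which 760 and 430 were among the main calls. Without the 3 liver arrays high in macrophage markers, 845 were higher and 460 lower, of which 793 and 427 were among them. Of 197 genes described in the text, 190 were called, 169 of them kept direction and call in all 23 settings and none reversed. The 21 that lost a call were Slc4a10, Slc7a7, Slc29a1, Adgra2, Apc, Hoxb2, Hoxa4, Gata4, Otx2, Lcn2, Top2a, Cox7a2, Tpi1, Psmb8, Psmb9, Ptgr1, Hfe, Nrg1, Cldn15, Jam2 and Magi1. Of the 7 uncalled genes, Tek was higher without brain 4 (0.23, adjusted p = 0.0214) and Cdh5 lower after centring (−0.51, adjusted p = 0.00118) and without the 3 macrophage-high liver arrays (−0.46, adjusted p = 0.0314), in limma fits. Basement membrane genes that were lower numbered 7 with the replicate block, and lower proliferation genes 14 after centring and 2 among genes above the median level.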
